A study of Ovis aries with 15 samples.

Results

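The 6 liver libraries of gestational day (GD) 144, the stage closest to birth in a series of 15 fetal sheep libraries, were examined for how far they differed from one another. The 5 libraries of GD124 served as the reference for spread. Genes were kept where their mean over the GD144 libraries reached 10 CPM, a count scaled to a common library size, which gave 8556 of the 16977 genes tested and of the 31411 genes in the table. The choice of genes uses the mean level at GD144, which also admits genes that are high in only a few of its libraries. Of these genes 7990 also reached 10 CPM at GD124.

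The study followed the liver of fetal sheep (Ovis aries) through later gestation by poly(A) RNA sequencing at GD100, GD124 and GD144, with 4, 5 and 6 libraries. Both groups used for spread are liver tissue with no treatment, sex, breed or genotype in the labels. The labels do not say if each library is a different fetus, so every p-value measures the spread between these libraries only. The sample codes begin with other letters at each stage, and cohort, handling and stage cannot be told apart.

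Near term the fetal liver takes on the tasks of life after birth. Hepatocytes gain enzymes for making glucose, for burning fatty acids and for breaking down amino acids, partly under the rise of fetal cortisol and, after birth, of glucagon. Fatty acids enter mitochondria as carnitine esters and are cut down by beta-oxidation, which supplies energy and ketone bodies. Blood formation, a main task of the liver earlier in gestation, moves to the bone marrow over the same period.

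The GD144 libraries held 27370666 to 38247295 counts and those of GD124 24215612 to 33769804. Counting error was a small share of the spread, with a median expected SD of 0.0477 log2 units at GD144 and 0.0510 at GD124. Mitochondrially encoded mRNAs, 13 genes, took 5.42 to 10.96% of counts at GD144 and 6.62 to 8.35% at GD124. Summed Y-linked genes exceeded 100 CPM in 3 of 6 and 3 of 5 libraries. Hepatocyte markers were high in every library, with ALB, the gene of serum albumin, at 46324 to 73916 CPM, while 13 markers of muscle, kidney, adrenal and pancreas summed to 18.3 to 47.4 CPM against 15.3 to 46.5 CPM at GD124. Of these 13 CKM and CYP11B1 had no count in any GD144 library and 1 had a mean above 10 CPM. No pair of libraries within a stage was close to a repeat of the other, with a chi-square per degree of freedom of at least 55.5 over 25 pairs.

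Several GD144 libraries stood apart from the rest. Replicate 3 carried the most RNA of red cell precursors and of dividing cells, while replicates 1 and 4 lay at opposite ends of the first principal component, with scores of -34.2 and 24.9 against -11.8 to 8.01 in the other 4. Replicate 1 also had the smallest share of mitochondrial counts, at 5.42%, and its deviations from the stage mean rose with the genomic span of a gene more than in any other GD144 library, with a Spearman correlation of 0.25 across 8535 genes. Scaling mattered for replicates 1 and 6: with total counts in place of the trimmed mean of M values (TMM), the median gene of replicate 1 moved up by 0.13 log2 units and that of replicate 6 by -0.11. Results that rest on 1 library are given with and without it.

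Over the 8556 genes, the libraries of GD144 differed from one another by about as much as those of GD124. The median SD of log2 CPM was 0.214 at GD144 (jackknife SE 0.0188, n = 6), which is a factor of 1.16, and 0.208 at GD124 (SE 0.02005, n = 5). Leaving out 1 library at a time gave 0.198 to 0.218 at GD144 and 0.184 to 0.213 at GD124, and without replicates 1 and 4 together the GD144 value was 0.179. Taken by library, the median distance from the other libraries of the stage was 0.158 ± 0.0293 log2 units at GD144 (SD, n = 6) and 0.157 ± 0.0252 at GD124 (SD, n = 5). The difference of 0.000972 had p = 0.948 in a two-sided exact permutation test.

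The upper end of the distribution differed more than its middle. An SD above 1, a typical 2-fold distance from the mean, was found for 145 genes at GD144 (1.69%) and for 92 of the same genes at GD124 (1.08%). An SD above 0.5 was found for 704 (8.23%) and 494 (5.77%). The filter on the GD144 mean can favour genes with a wide spread there. With 10 CPM required at both stages, 107 genes (1.34%) at GD144 and 71 (0.889%) at GD124 had an SD above 1. The plot of SDs by stage shows distributions that lie on one another up to about the third quartile, 0.308 at GD144 and 0.296 at GD124. Genes that varied at one stage tended to vary at the other, with a Spearman correlation of 0.465 over 8556 genes, which are not independent. Of the 7990 genes with 10 CPM at both stages, the 10% with the largest SDs at each stage shared 368 of 799 genes (46.1% of each).

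**Figure D1:**
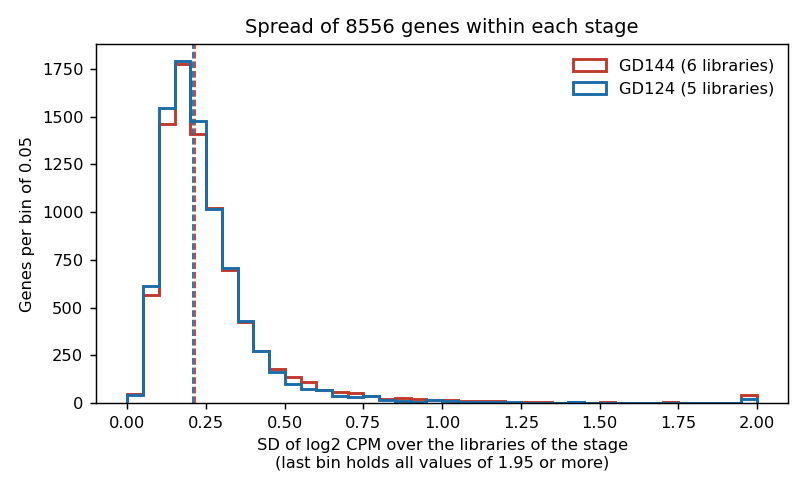
Number of genes (vertical axis) by SD of log2 CPM within a stage (horizontal axis), for the 8556 genes with a mean of at least 10 CPM at GD144, with 6 libraries at GD144 and 5 at GD124. Both distributions peak near 0.2, with medians of 0.214 and 0.208, and GD144 has more genes in the right tail.

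Few single genes were called for a different spread between the stages. With limma on absolute deviations and Benjamini-Hochberg adjustment over 16977 genes, 1 gene had a larger spread at GD144 (0.00589%) and 11 a smaller one (0.0648%), against 888 and 821 at an unadjusted p under 0.05. The gene with the larger spread was ACSM1, an acyl-CoA synthetase of medium-chain fatty acids, without a count in any GD124 library. Of the 11 genes 9 had no count at GD144, and the highest mean there was 5.58 CPM. Among the 7990 genes with 10 CPM at both stages the test called 0 genes, against 382 higher and 337 lower at an unadjusted p under 0.05, with a lowest adjusted p of 0.155. An exact permutation test per gene also called 0 of them after adjustment and 644 at an unadjusted p under 0.05. On simulated data with known changes of spread, limma on absolute deviations found none of the altered genes. Few calls, a count of 0 or a large adjusted p for a single gene thus do not show equal spread.

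Log2 absolute deviations, an alternative chosen after seeing the data, called 17 genes higher (0.1%) and 15 lower (0.0884%). Among the 7990 genes these were 3 higher and 1 lower, against 301 and 247 at an unadjusted p under 0.05. SRP19, a subunit of the signal recognition particle, ran from 14.2 to 27.6 CPM at GD144 (median 19.5) and from 22.7 to 24.5 at GD124, with SDs of 0.35 and 0.04 log2 units and an adjusted p of 0.0431 in limma. AMD1, which makes decarboxylated S-adenosylmethionine for polyamines, ran from 96.1 to 147 CPM (median 109.6) and from 95.9 to 99.0, with SDs of 0.27 and 0.02 and an adjusted p of 0.0499 in limma. For both genes the GD124 libraries lay closer together than for a typical gene of that stage. The third was a locus without a gene symbol.

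ABCA3, a lipid transporter, was the gene with the smaller spread. Its 6 libraries at GD144 held 50.9 to 67.3 CPM, while at GD124 it had 43.8, 13.2, 51.1, 33.6 and 13.8 CPM, with SDs of 0.14 and 0.92 and an adjusted p of 0.0211 in limma on the log scale. The naming rule adds uncalled genes by their unadjusted p, and being uncalled does not show equal spread. PEG3, an imprinted zinc finger gene, held 4473 to 4841 CPM in the 5 GD124 libraries and 512 to 2428 CPM (median 1051) at GD144, with SDs of 0.05 and 0.82 (limma adjusted p 0.192, and 0.0812 on the log scale). GSTA1, a glutathione transferase, held 176 to 225 CPM at GD124 and 5.16 to 102 CPM (median 39.6) at GD144, with SDs of 0.15 and 1.59 (limma adjusted p 0.213). Both fell in level, and every GD144 library lay below every GD124 library. H6PD, a dehydrogenase of the endoplasmic reticulum that reduces NADP, was the reverse case, with 238 to 254 CPM at GD144 and 166 to 311 CPM at GD124 (limma adjusted p 0.199).

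The genes with a symbol and the largest SDs at GD144 were of mixed kinds. ACSM1 had 0.321, 4.08, 0.478, 0.49, 146 and 89.1 CPM in replicates 1 to 6, with an SD of 3.86 log2 units, and 0 of its GD124 libraries had a count, where 3 counts correspond to 0.0784 to 0.124 CPM. Replicates 5 and 6 thus held most of its RNA at GD144. UGT1A3, a glucuronosyltransferase that shares exons and near-identical copies with other genes of its cluster, ran from 1.25 to 299 CPM (median 63.3, SD 3.35) at GD144 and from 5.89 to 49.4 CPM at GD124. ABCC11, an efflux transporter, ran from 2.17 to 218 CPM (median 67.1, SD 2.84), and its 5 GD124 libraries varied as much, from 0.555 to 60.9 CPM (SD 2.93). CA3, a carbonic anhydrase, ran from 4.29 to 358 CPM (median 42.3) at GD144 and from 48.2 to 593 CPM at GD124.

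Some large SDs came from 1 library. ORM1, an acute-phase plasma glycoprotein, held 469 to 1309.8 CPM in 5 libraries and 3.29 CPM in replicate 3, a level within the GD124 range of 0.612 to 10.1 CPM. Its SD was 3.31 log2 units, and 0.61 without replicate 3. HAO2, a peroxisomal hydroxyacid oxidase, held 20.5 to 51.9 CPM in 5 libraries and 0.54 CPM in replicate 5, and its SD without that library was 0.68. In all, 22 of the 8556 genes had neighbouring GD144 libraries at least 16-fold apart, as had 19 at GD124 among 8721 genes with a mean of 10 CPM there, and 11 were on both lists (50% and 57.9% of them). Of the 22, 3 lie on the Y chromosome. VTN, the gene of vitronectin, RPL37A, a ribosomal protein gene, and ENPP3, an ectonucleotidase, belong to them and are named after their values were seen: VTN held 276 CPM in replicate 3 and 5903 to 7252 CPM in the other 5.

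The genes with a symbol and the smallest SDs at GD144 were of other kinds. SLC17A5, a lysosomal sialic acid exporter, held 9.79 to 10.3 CPM in the 6 libraries, DR1, a repressor of transcription, 39.3 to 41.5 CPM and SNX17, a sorting nexin of endosomes, 50.9 to 54.4 CPM. Their SDs were 0.02, 0.03 and 0.03 log2 units, less than the counting error expected for a typical gene. At GD124 they were 0.16, 0.13 and 0.07. These genes were picked for the smallest SDs at GD144, so larger SDs at GD124 follow partly from the choice. An SD below counting error does not show that a gene is truly steadier than others.

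Genes with a changed level were more frequent among the variable genes, in both directions. By edgeR's quasi-likelihood test over 16977 genes, 2046 genes were higher at GD144 than at GD124 (12.1%) and 2617 lower (15.4%). Among the 8556 genes 1561 rose (18.2%) and 1066 fell (12.5%). The 856 most variable genes (10%), with an SD of at least 0.456, held 227 that rose (26.5%) and 144 that fell (16.8%). Both shares exceeded those of all 8556 genes, although the same libraries give the spread and the level.

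The first principal component of the GD144 libraries, with 31.6% of the variance, had replicates 1 and 4 at its ends. Its largest weights towards replicate 4 belonged to UGT1A3, CMKLR2 (a receptor of chemerin), SDS and SDSL (serine dehydratases, which turn serine into pyruvate), GK (glycerol kinase) and XDH (xanthine dehydrogenase). XDH held 19.0 to 308 CPM at GD144 (median 95.2) and 3.24 to 4.64 CPM at GD124. GK held 2.12 to 51.3 CPM (median 14.7) and 0.384 to 1.04 CPM. Both rose in level, and their lowest library was replicate 1 and their highest replicate 4. The largest weights towards replicate 1 belonged to DLEC1, MGAT4A, CDC42EP5, ORM1, RGS6 and ISYNA1. MGAT4A, a glycosyltransferase, held 9.71 to 75.3 CPM (median 24.6) against 60.3 to 116 CPM at GD124, and ISYNA1, which makes inositol phosphate, 17.4 to 82.2 CPM (median 22.7) against 128 to 280.3 CPM. Both fell, and replicate 1 was nearest to the GD124 levels.

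Genes of fatty acid oxidation varied more at GD144 than a typical gene, and largely together. Of 30 listed genes 27 reached 10 CPM. Their median SD was 0.36 log2 units, against 0.214 for all 8556 genes, and 0.21 at GD124. By edgeR 19 of the 27 rose and 0 fell, where 18.2% of all genes above 10 CPM rose. For 13 every GD144 library lay above every GD124 library, a share that was not computed over all genes. Replicate 1 was the lowest library for 20 of the 27 and replicate 4 the highest for 11. These shares were not computed over all genes. Of all 8556 genes, replicate 1 lay farthest from the stage mean, in either direction, for 2144 and replicate 4 for 2126. The median Pearson correlation between pairs of the 27 members over the 6 libraries was 0.55. It was 0.02 between pairs of all genes and 0.21 for the 27 members at GD124. Without replicate 1 the correlation of the members at GD144 was 0.10, and the median SD 0.29, so that the common movement rested mainly on that library. Apart from ACSM1 no member was called for a different spread by limma on absolute deviations, which found none of the altered genes in simulated data. At an unadjusted p under 0.05 by that test 5 members, ACSM1 among them, had a larger spread at GD144. So had 414 of all 8556 genes.

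ACSL1, which activates long-chain fatty acids on the outer mitochondrial membrane and elsewhere, had the largest SD among the members above 10 CPM after ACSM1. It held 205, 336, 557, 1092, 764 and 586 CPM in GD144 replicates 1 to 6 and 61.3 to 89.1 CPM at GD124. All 6 libraries lay above GD124, yet they differed among themselves with an SD of 0.86 log2 units, against 0.21 at GD124. The limma adjusted p of the difference in spread was 0.369, which does not show equal spread. The level of ACSL1 rose by 2.94 ± 0.36 log2 units (SE, edgeR adjusted p 4.21e-05). SLC25A20, the carrier of acylcarnitines across the inner membrane, ran from 20.2 to 65.7 CPM (median 48.8) at GD144, with replicates 1 and 2 at 20.2 and 27.5 CPM, near the 20.5 to 25.6 CPM of GD124.

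CPT1A, the rate-limiting step of entry into mitochondria, behaved otherwise. It held 107 to 151 CPM in 5 GD144 libraries and 285 CPM in replicate 4, against 41.3, 41.9, 59.7, 46.8 and 49.4 CPM at GD124. Its SD of 0.50 log2 units became 0.22 without replicate 4, and at GD124 it was 0.22. PDK4, which restrains the use of glucose by blocking pyruvate dehydrogenase, had the same library on top, with 446 CPM against 120.1 to 209 CPM in the other 5 and 20.4 to 33.1 CPM at GD124, and its SD of 0.67 became 0.32. Both genes rose, by 1.71 ± 0.22 and 2.89 ± 0.32 log2 units (SE, edgeR adjusted p 5.27e-05 and 1.92e-05).

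ACADM, the medium-chain acyl-CoA dehydrogenase, ran from 114 to 248 CPM (median 183, SD 0.37), and PPARGC1A, a coactivator of oxidative genes, from 31.4 to 63.0 CPM (median 43.8, SD 0.37). Both were lowest in replicate 1. ECHS1, the enoyl-CoA hydratase of the pathway, was the steadiest member, at 309 to 404 CPM with an SD of 0.14, below its 0.26 at GD124. ACSL1, SLC25A20, CPT1A, ACADM and PPARGC1A overlap other genes in the RefSeq annotation, and since the strand of counting is not stated, reads of an overlapping gene cannot be told apart from theirs.

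**Figure D2:**
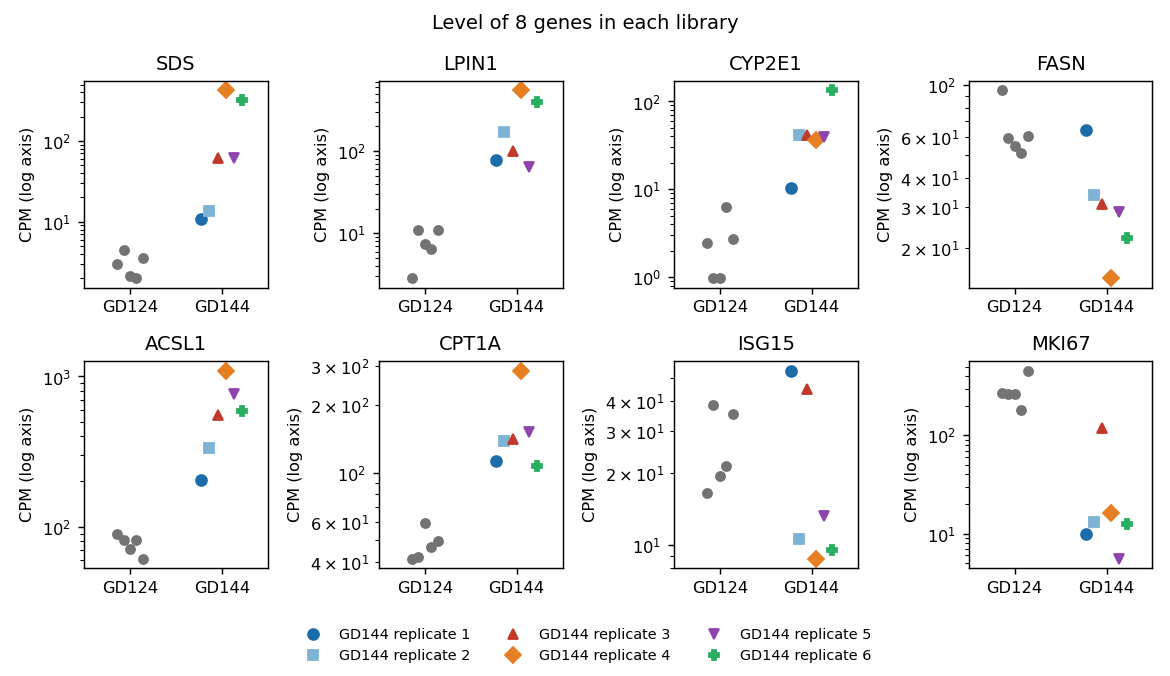
CPM on log axes (vertical) of SDS, LPIN1, CYP2E1, FASN, ACSL1, CPT1A, ISG15 and MKI67 in the 5 libraries of GD124 (grey points) and the 6 of GD144 (1 coloured symbol per replicate). Replicate 4 is highest for SDS, LPIN1, ACSL1 and CPT1A, replicate 1 lowest for SDS, CYP2E1 and ACSL1 and highest for ISG15 and, within GD144, FASN, and replicate 3 stands alone for MKI67.

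SDS had the largest SD of all members of the amino acid list. It held 10.9, 13.6, 61.3, 422, 61.6 and 322 CPM in GD144 replicates 1 to 6 and 2.97, 4.43, 2.15, 1.99 and 3.54 CPM at GD124. Every GD144 library lay above GD124, and the libraries fell into low values in replicates 1 and 2, middle values in 3 and 5 and high values in 4 and 6. The SD was 2.204 log2 units, against 0.47 at GD124, and 1.97 to 2.46 when a library was left out. The limma adjusted p of the difference was 0.315, from the test that found none of the altered genes in simulated data. SDSL, the homologue of SDS, ranked the libraries in nearly the same way, from 3.05 CPM in replicate 1 to 54.8 and 72.7 CPM in replicates 4 and 6, with 0.828 to 2.80 CPM at GD124. GNMT, which uses up S-adenosylmethionine by methylating glycine, ran from 29.3 to 317 CPM (median 119) against 7.68 to 11.8 CPM, and CTH, which makes cysteine from cystathionine, from 34.3 to 239 CPM (median 126) against 32.6 to 64.5 CPM.

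Of the 41 genes of amino acid breakdown, all above 10 CPM, 18 rose and 0 fell, where 18.2% of all genes above 10 CPM rose and 12.5% fell. Their median SD was 0.34 at GD144 and 0.26 at GD124. Pairs correlated with a median of 0.32 over the 6 libraries, 0.01 without replicate 1. TAT, tyrosine aminotransferase, ran from 269 to 601 CPM (median 402) with an SD of 0.39, and 0.14 at GD124. BCKDHA, a subunit of the branched-chain keto acid dehydrogenase, was the steadiest, at 32.1 to 36.4 CPM. The wide range of SDS was thus not shared by the list as a whole.

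For gluconeogenesis, too, replicate 1 was lowest and replicate 4 highest by the median of the members, with the other 4 in another order than for fat oxidation. Of 15 genes of gluconeogenesis 14 reached 10 CPM, and 9 rose and 0 fell, beside 18.2% and 12.5% of all genes above that level. Their median SD was 0.37 at GD144 and 0.22 at GD124. PCK1, the cytosolic phosphoenolpyruvate carboxykinase, held 38.8 to 301 CPM (median 147, SD 1.04), lowest in replicate 5, and 17.4 to 51.5 CPM at GD124. GPT2, alanine aminotransferase of mitochondria, ran from 68.7 to 421 CPM (median 232, SD 0.95) and PCK2, the mitochondrial carboxykinase, from 119 to 357 CPM (median 265, SD 0.59), both lowest in replicate 1. G6PC1, which frees glucose in the last step, was an exception, with 402 to 780.5 CPM (SD 0.40) against 58.3 to 199.7 CPM at GD124 (SD 0.74), as was SLC25A10, a dicarboxylate carrier, with 105 to 130.2 CPM (SD 0.11). The pair correlation of the list was 0.57 and became 0.19 without replicate 1.

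LPIN1, which makes diacylglycerol and also acts with PPARGC1A on oxidative genes, varied by another order of libraries. It held 78.3, 172, 100.1, 547, 64.1 and 399 CPM in GD144 replicates 1 to 6 and 2.84, 11.1, 7.45, 6.49 and 10.9 CPM at GD124. Replicates 4 and 6 were high, as for SDS, but the lowest library was replicate 5. The SD was 1.28 log2 units and 0.79 at GD124 (limma adjusted p of the difference 0.681, which does not show equal spread). The rise in level was 4.87 ± 0.67 log2 units (SE, edgeR adjusted p 0.000151). ANGPTL4, a secreted inhibitor of lipoprotein lipase, held 51.6 CPM in replicate 4 and 10.9 to 21.6 CPM in the other 5. FABP1, the fatty acid binding protein of liver, ran from 169.9 to 539.9 CPM (median 275) and PLIN5, a lipid droplet protein, from 56.5 to 68.2 CPM. Of the 10 genes of lipid storage above 10 CPM 5 rose and 0 fell, beside 18.2% and 12.5% of all genes above that level. FGF21 and PLIN2, also on the list of named genes, had means below 10 CPM.

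Urea synthesis and the apolipoproteins shared with fat oxidation the low place of replicate 1, which was lowest for 10 of 15 and 7 of 14 members. The share of all genes lowest in replicate 1 was not computed, so these counts do not mark out the 2 lists. CPS1, the entry enzyme of the urea cycle, held 3030.3 CPM in replicate 1, below the 3095 to 4047 CPM of GD124, and 4821 to 8876 CPM in the other 5. GLS2, liver glutaminase, held 131 CPM in replicate 1 and 261 to 355 CPM in the other 5. APOA5, which activates lipoprotein lipase, ran from 209.7 to 1097 CPM (median 587, SD 0.84), lowest in replicate 1 and highest in replicate 4, against 306 to 471 CPM at GD124. LCAT, which esterifies cholesterol in plasma lipoproteins, was the steadiest of the apolipoprotein list, at 234 to 275 CPM. The median SDs of the 2 lists were 0.31 and 0.27 log2 units, against 0.24 and 0.30 at GD124. The apolipoproteins thus varied no more than at GD124.

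Replicate 1 was also low for genes that every cell uses. It was the lowest library for 28 of the 30 nuclear genes of the respiratory chain, for 49 of 51 cytosolic ribosomal protein genes and for 23 of 26 proteasome genes, shares not computed over all genes. The respiratory chain, ribosomal and proteasome genes had median SDs of 0.28, 0.19 and 0.21 log2 units, against 0.214 for all 8556 genes. At GD124 the medians of the lists were 0.19, 0.14 and 0.17. The genes of each list moved closely together, with median pair correlations of 0.86, 0.73 and 0.80, against 0.36, 0.49 and 0.44 at GD124. COX5A, a subunit of cytochrome oxidase, held 26.3 to 55.1 CPM (median 44.1) and NDUFA6, a subunit of complex I, 21.4 to 44.9 CPM (median 37.4). Without replicate 1 the median SD was 0.19 for the respiratory chain and the pair correlation 0.73, while for ribosomal proteins the correlation was 0.23. With total counts in place of TMM replicate 1 stayed lowest, at a score of -0.29 for the respiratory chain and -0.18 for the ribosomal proteins, against -0.42 and -0.31. The mitochondrial share and the relation to gene span given above move with these lists, and their part in them was not tested.

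Chaperones varied together in both compartments. The 13 heat shock genes above 10 CPM had a median SD of 0.36 log2 units and a pair correlation of 0.70, and 0.53 without replicate 1. HSPA1A, the inducible HSP70, held 34.3, 56.4, 257, 161, 498 and 319.8 CPM in replicates 1 to 6 and 218 to 682 CPM at GD124, and DNAJB1, its cochaperone, 16.6, 22.4, 50.1, 30.7, 76.5 and 64.6 CPM. Replicates 1, 2 and 4 lay below every GD124 library for both genes, with replicate 1 lowest and replicate 5 highest. Over the list replicate 4 was highest, for 7 of 13 members against 3 for replicate 5, and replicate 1 lowest for 11. HSPA6, a further inducible HSP70, held 58.1 CPM in replicate 5 and 0.481 to 4.46 CPM in the other 5. The 19 genes of endoplasmic reticulum stress had a median SD of 0.33 and a pair correlation of 0.77, 0.65 without replicate 1. MANF, a secreted factor of that response, ran from 39.4 to 101 CPM (median 72.5), and TRIB3, a pseudokinase induced by stress, from 11.2 to 27.9 CPM against 2.84 to 5.07 CPM at GD124. In the heat shock list 1 member rose and 0 fell, and in the endoplasmic reticulum list TRIB3 was 1 of 2 that rose and 0 fell. Of all genes above 10 CPM 18.2% rose and 12.5% fell.

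A score for each list and library, the median over members of log2 CPM minus the stage mean, shows which lists moved together. The fat oxidation score was -0.40, -0.03, -0.02, 0.26, 0.15 and 0.12 in replicates 1 to 6, a range of 0.66 log2 units, against 0.28 at GD124. Of 34 other lists 24 correlated positively with it over the 6 libraries and 13 did so with a Pearson r above 0.8. Among these were the apolipoproteins (r 0.97, Spearman rho 0.89), the cytosolic ribosomal proteins (0.96, 0.83), gluconeogenesis (0.94, 0.83), heat shock (0.93, 0.94), amino acid breakdown (0.91, 0.71) and endoplasmic reticulum stress (0.91, 0.94). The respiratory chain (0.88, 0.83) and the proteasome (0.83, 0.66) were among them too, so that genes used by every cell moved with the metabolic lists. These points share a library and its scaling, and by exact permutation over 720 orders with Benjamini-Hochberg adjustment 0 of 34 relations passed 0.05 (lowest adjusted p 0.0551), against 12 at an unadjusted p under 0.05 for r and 4 for rho.

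Without the libraries at both ends, replicates 1 and 4, 5 of the 13 kept an r above 0.8: apolipoproteins 0.83, heat shock 0.86, amino acid breakdown 0.96, hepatocyte markers 0.88 and endoplasmic reticulum stress 0.98. These values rest on 4 libraries, and lists with a small r over all 6 also became extreme. Endothelial markers went from 0.30 to 0.97, the glucocorticoid response from 0.17 to 0.93 and bile acid genes from -0.07 to -0.88. An r above 0.8 here thus does not show that a relation held. For gluconeogenesis r was then 0.56, for the respiratory chain 0.49, for the proteasome 0.29 and for the urea cycle 0.19. The lists with the most negative r were the interferon response, -0.78, and growth factors and receptors, -0.74, and they had -0.22 and -0.12 without both libraries. Across the 30 function lists scored, replicate 1 was lowest in 15 and replicate 4 highest in 10. A total of 27 of the 30 had a median SD above that of all genes, as had 25 of the 30 at GD124.

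**Figure D3:**
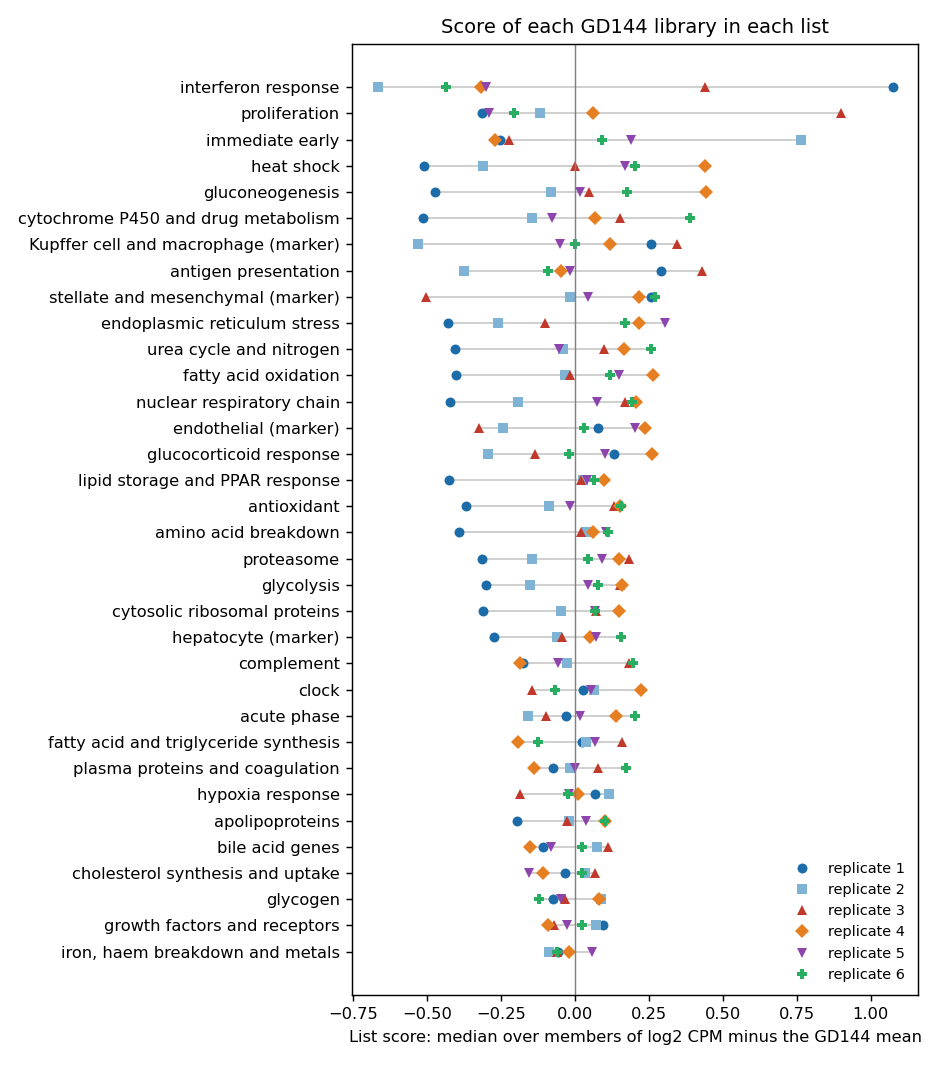
Score of each GD144 library (horizontal axis, log2 units from the stage mean, 1 symbol per replicate) in 34 gene lists (vertical axis, ordered by range), with the erythroid list left out because of its range. Replicate 1 is low in most metabolic lists and high in the interferon response (1.07), replicate 2 is high in immediate early genes (0.76) and replicate 3 in proliferation (0.90).

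Interferon-induced genes varied most among the lists of hepatocyte and immune functions, and in another direction. The 11 genes above 10 CPM had a median SD of 0.79 log2 units, against 0.34 at GD124. All 11 had the larger SD at GD144, beside 52.5% of all 8556 genes, and they are not independent of one another. Their pair correlation was 0.86, and 0.71 without replicate 1. ISG15, a ubiquitin-like modifier, held 53.5, 10.5, 44.8, 8.73, 13.2 and 9.48 CPM in replicates 1 to 6 and 16.5 to 38.3 CPM at GD124. MX1, an antiviral GTPase, held 68.9, 19.0, 67.6, 22.6, 20.4 and 20.7 CPM, against 17.3 to 48.2 CPM. Replicates 1 and 3 thus lay above the GD124 range for both and the other 4 near or below its lower end. IFI6 held 180.5 CPM in replicate 1 and 26.2 to 75 CPM in the other 5. None of the 11 was called for spread, with 0 at an unadjusted p under 0.05 by limma on absolute deviations. That test found none of the altered genes in simulated data. In level 1 of the 11 rose, where 18.2% of all genes above 10 CPM did. Without replicate 1 the median SD was 0.55. B2M, the light chain of class I antigens, was likewise highest in replicates 1 and 3, at 328 and 271 CPM against 134 to 199 CPM in the other 4.

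Immediate early genes, which respond within minutes to stimuli and handling, were highest in replicate 2 for 13 of 19 members. EGR1 held 198 CPM there and 16.8 to 92.9 CPM in the other 5, IER3 156 and 14.2 to 48.2 CPM, FOS 84.4 and 9.37 to 26.4 CPM, and JUNB 115 and 16.4 to 51.2 CPM. At GD124 FOS held 11.8 to 31.7 CPM and IER3 28.8 to 38.5 CPM, so replicate 2 lay above that range and the other libraries around it. EGR1 rose, with 3.35 to 13.4 CPM at GD124 and every GD144 library above it. The list's median SD was 0.67 log2 units, 0.49 at GD124, and 0.35 without replicate 2. Of its 19 members 9 rose and 0 fell, beside 18.2% and 12.5% of all genes above 10 CPM. The time from death to freezing is not in the labels, and its part was not tested.

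The acute phase list mixed very different genes. CRP, C-reactive protein, held 799 to 2758 CPM (median 1864, SD 0.62) against 115 to 648 CPM at GD124 (SD 0.93). HAMP, the iron hormone hepcidin, held 3.24 and 4.04 CPM in replicates 1 and 2 and 13.4 to 14.8 CPM in the other 4, against 3.46 to 5.81 CPM at GD124. CP, ceruloplasmin, ran from 5.99 to 216 CPM (median 37.7, SD 1.76) and IL1RN, the interleukin-1 receptor antagonist, from 39.9 to 293 CPM (median 92.2, SD 1.03) against 11.6 to 16.2 CPM. Members paired with a correlation of 0.13, so they did not form 1 pattern. Of the 14 members above 10 CPM 6 rose and 0 fell, beside 18.2% and 12.5% of all genes above that level.

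Genes of the glucocorticoid response rose near term, but varied no more than at GD124. Of 18 members 15 rose and 0 fell, beside 18.2% and 12.5% of all genes above 10 CPM. For 14 every GD144 library lay above every GD124 library, a share that was not computed over all genes. The median SD was 0.38 log2 units at GD144 and 0.41 at GD124. PER1, a clock gene induced by cortisol, held 49.9 to 62.6 CPM in the 6 libraries (SD 0.13) and 10.7 to 19.9 CPM at GD124 (SD 0.34), and was both higher and steadier. FKBP5, a chaperone of the receptor, held 122 CPM in replicate 4 and 26.2 to 48.4 CPM in the other 5. IGFBP1, which binds insulin-like growth factors, ran from 101 to 596 CPM (median 347, SD 0.99), highest in replicates 1 and 2. SGK1, a kinase, was lowest in replicate 2, at 11 CPM against 21.7 to 41 CPM.

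Drug metabolism was among the more variable functions at both stages. CYP2E1, which oxidises ethanol and ketones, held 10.4, 41.4, 41.8, 36.9, 39.8 and 133 CPM in GD144 replicates 1 to 6 and 2.43, 0.972, 0.973, 6.36 and 2.73 CPM at GD124. All 6 lay above GD124, 4 of them close together with replicate 1 below and replicate 6 above. Its SD was 1.17 log2 units and 1.10 at GD124, and 0.78 without replicate 1. CYP3A24, a monooxygenase of many drugs, ran from 4.15 to 27.6 CPM (median 11.7, SD 0.93) and from 0.369 to 5.37 CPM at GD124 (SD 1.56). EPHX1, an epoxide hydrolase, was the steadiest, at 465 to 654 CPM. For the 11 members above 10 CPM the median SD was 0.43 and 0.47.

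Synthesis of lipids did not follow oxidation. FASN, fatty acid synthase, held 64.1, 33.8, 30.8, 14.8, 28.5 and 21.9 CPM in GD144 replicates 1 to 6, highest in replicate 1 and lowest in replicate 4, the reverse of ACSL1, and 51 to 95 CPM at GD124. SREBF1, a regulator of fatty acid synthesis, ran from 14 CPM in replicate 4 to 60.9 CPM in replicate 1, and FADS1 and FADS2, desaturases of polyunsaturated fatty acids, were lowest in replicate 4 at 23.3 and 44.4 CPM, against 59.8 to 143 and 71.3 to 214 CPM in the other 5. The list as a whole had an r of -0.46 with the fat oxidation score (adjusted p 0.681 by exact permutation). Its median SD was 0.37 log2 units, 0.34 at GD124, and its pair correlation 0.11. Of its 18 members above 10 CPM replicate 4 was lowest for 9, while replicate 1 was highest for 7 and lowest for 6. The order of FASN was thus not shared by the list as a whole. SCD, stearoyl-CoA desaturase, varied less at GD144 (SD 0.51) than at GD124 (0.81).

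Cholesterol synthesis varied as much as at GD124 but not together. The 21 members had a median SD of 0.34 log2 units at GD144 and 0.33 at GD124, while their pair correlation was 0.05 and 0.71. The range of the score was 0.22 against 0.72. The range at GD124 rested on its replicate 1, with a score of 0.48 against -0.24 to -0.01 in the others. SQLE, squalene epoxidase, held 11.2 to 15.9 CPM (SD 0.21) against 35.6 to 60.8 CPM, and every GD144 library lay below every GD124 library. Of the 21 members 8 fell and 0 rose, beside 12.5% and 18.2% of all genes above 10 CPM. Glycogen genes showed the same contrast, with pair correlations of -0.02 and 0.48. Again GD124 replicate 1 stood apart, with a score of 0.30 against -0.22 to 0.05 in the others. The GD124 correlations of both lists were not computed without that library, so how far they rest on it is not known. These differences in correlation between stages were not tested.

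**Figure D4:**
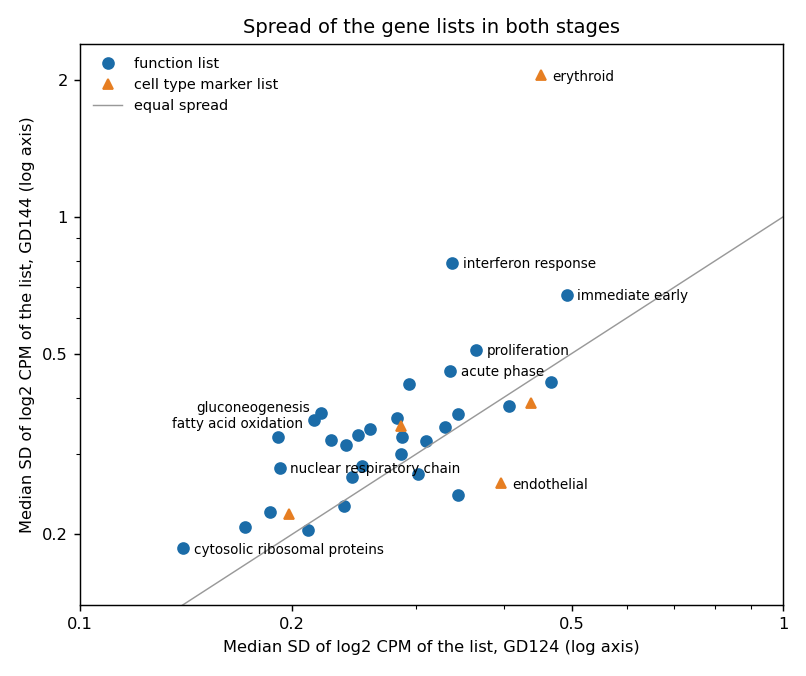
Median SD of log2 CPM over the members of each gene list at GD124 (horizontal log axis, n = 5 libraries) and GD144 (vertical log axis, n = 6), with the diagonal of equal spread. The erythroid list (0.45 and 2.05) and the interferon response (0.34 and 0.79) lie farthest above the diagonal, and endothelial markers (0.40 and 0.26) lie below it.

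Red cell precursors gave the widest spread of any list. Their 8 markers above 10 CPM had a median SD of 2.05 log2 units at GD144 and 0.45 at GD124, and 1.35 without replicate 3. The means that admitted these markers include replicate 3, which was highest for all 8. The value without it keeps the same members, so the choice of markers still rests partly on that library. SLC4A1, the anion exchanger of red cells, held 12.3, 19.8, 201, 25.9, 2.19 and 18.2 CPM in replicates 1 to 6 and 393 to 906 CPM at GD124. AHSP, which stabilises alpha globin, held 0.54 to 106 CPM (median 7.36) against 266 to 568 CPM. Replicate 3 was highest and replicate 5 lowest for both, and all 8 genes fell, with every GD144 library below every GD124 library. Of all genes above 10 CPM 12.5% fell, and the share without overlap between the stages was not computed. The summed markers ran from 35.0 to 960.3 CPM (median 99.8) against 1845.7 to 3963.5 CPM. In bulk tissue fewer cells of a type and less RNA per cell cannot be told apart. The other 6 markers tested had means below 10 CPM at GD144.

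Proliferation genes followed replicate 3 too. MKI67, a marker of cycling cells, held 9.81, 13.1, 118, 16.3, 5.55 and 12.6 CPM in replicates 1 to 6 and 181 to 455 CPM at GD124, TOP2A, a topoisomerase of dividing cells, 5.01 to 29.5 CPM against 45.7 to 96.7 CPM, and PCNA, the sliding clamp of replication, 11 to 33.5 CPM against 45.3 to 90.4 CPM. Replicate 3 was highest for all 3, still below every GD124 library. Of the 9 members above 10 CPM 8 fell, beside 12.5% of all genes above that level. The median SD was 0.51 log2 units and 0.28 without replicate 3, and the pair correlation 0.80 and 0.38. The means that admitted the 9 members include replicate 3, and the SD without it keeps them. Replicate 3 was highest for all 8 red cell markers and 8 of the 9 proliferation genes, while replicate 5 was lowest for 7 and 4 of them. Which cells held this RNA was not tested.

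Markers of resident non-blood cells and macrophages had smaller median SDs than those of red cells. Kupffer cell and macrophage markers had a median SD of 0.39 log2 units against 0.44 at GD124, with summed levels of 628.8 to 1114.4 CPM, and replicate 2 was lowest for 10 of 12. MARCO, a scavenger receptor, held 32.4 to 78.2 CPM (median 51.5). Endothelial markers had 0.26 against 0.40, with sums of 718.0 to 1024.2 CPM and replicate 3 lowest for 9 of 12. Stellate and mesenchymal markers had 0.35 against 0.29, with sums of 1171.5 to 2045.3 CPM and replicate 3 lowest for 11 of 14. ACTA2, smooth muscle actin, held 41.4 CPM in replicate 3 and 74.9 to 126 CPM in the other 5. Granulocyte markers, none of which reached 10 CPM, summed to 1.32 to 36.7 CPM (median 13.8) against 32.3 to 123.8 CPM (median 46.3) at GD124, and so had a wide range among the GD144 libraries. Lymphocyte markers summed to 8.65 to 23 CPM against 12.5 to 16.6 CPM.

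Each GD144 library was placed between the stages on genes called without it, on a scale where the GD124 mean is 0% and the mean of the other 5 GD144 libraries 100%. For 1742 to 2145 genes that rose the median place was 77.8, 81.4, 84.6, 122.8, 103.1 and 100.8% in replicates 1 to 6. For 2116 to 2514 genes that fell it was 92.9, 94.1, 64.6, 108.1, 111.8 and 106.0%. Replicate 3 lagged most in the falls and replicate 4 led most in the rises, while replicates 1 and 2 lay below 100% in both. With total counts the place of replicate 1 was 98.5% among the rises and 78.7% among the falls. That of replicate 6 among the rises was then 84.6%, so which library lags depends on the scaling. By these medians all 6 libraries lay nearer to the other GD144 libraries than to GD124, replicate 3 least so in the falls.

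**Figure D5:**
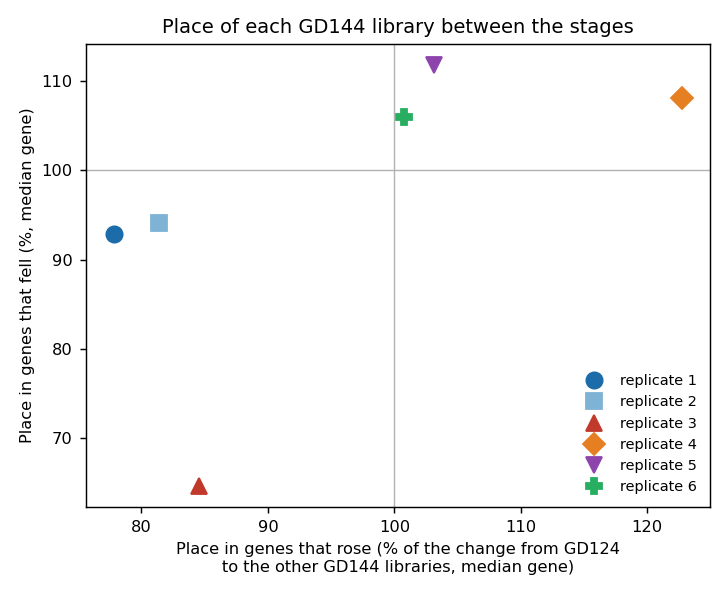
Place of each GD144 library on the way from the GD124 mean (0%) to the mean of the other 5 GD144 libraries (100%), as the median over genes that rose (horizontal) and that fell (vertical), with each library left out of the choice of its genes. Replicate 3 is lowest in the falls (64.6%) and replicate 4 highest in the rises (122.8%).

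Genes of growth control and of plasma proteins held both steady and variable members. The 18 growth factor and receptor genes had a median SD of 0.33 log2 units, 0.22 without replicate 4, and 0.19 at GD124. Their pair correlation at GD144 was 0.04. IGF1, insulin-like growth factor 1, held 199 to 295 CPM (SD 0.20) against 130.4 to 260.2 CPM at GD124 (SD 0.43). IGFBP2, a further binding protein, ran from 742 to 2392 CPM (SD 0.57) and DLK1, a fetal growth regulator, from 113 to 260.4 CPM (SD 0.45). The 26 plasma protein genes had a median SD of 0.22 log2 units, near that of all genes, and 0.19 at GD124. ALB held 46324 CPM in replicate 1 and 67759.7 to 73916 CPM in the other 5, an SD of 0.25 that became 0.05 without that library.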

How the data were processed

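The table holds an estimated count of reads per gene and library, as deposited by the authors and not normalised. The submitters' processing notes name DRAGEN; for its version, the build and the strand setting the answer is: not given in the sources used here. Fractional values (6.55%) were rounded to whole numbers, moving library totals by at most 27.9 reads. Log2 CPM used TMM factors of all 15 libraries and a prior count of 2 in edgeR 4.0.16 (R 4.3.3). Levels were compared with its quasi-likelihood test, all 15 libraries in 1 fit, and spread with limma 3.58.1 on absolute deviations from the stage mean of 11 libraries, both after filterByExpr, with Benjamini-Hochberg adjustment over 16977 genes at 0.05. DESeq2 1.42.0 served as an alternative. Spread on both scales was tested on simulated data: with the linear scale none of the altered genes was found, with the log scale many. Values without 1 library keep the members and scaling for SDs, and redo filter and scaling for pair correlations.

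RefSeq (ARS-UI_Ramb_v3.0) matched 28876 of 31411 names and served for names and overlaps only. Besides those named in the report GLS2, CYP3A24, FADS1, HSPA1A, B2M, CP, FKBP5, IGFBP1, RGS6, ABCC11, CA3, HAO2, VTN, SLC17A5, MGAT4A and DLEC1 overlap another gene. The genes and gene lists were chosen with earlier results of these data known. Named, among genes with a symbol, are fixed genes, the 12 largest SDs that stay at or above 0.5 without any 1 library, the 8 smallest, 8 each with the largest rise and fall of spread, 6 weights at each end of the first component and up to 4 of the most variable members of a list with the steadiest. The floor of 3 counts covers counting error only. Replicate numbers were checked for pairing between stages: correlations of deviations ran from -0.330 to 0.091, so they do not pair. A few genes are not analysed here.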

Additional observations from a re-analysis of the deposited data

Results flagged for a closer look

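A value was singled out where 1 library of a stage lay far from the others, by the gap to its nearest neighbour as a share of the whole range, against Dixon's 95% limit. Of 209 values looked at 16 passed. Chance singles out about 1 in 20 such groups, but the count cannot be read against that rate, since ORM1, HAO2, RPL37A, ENPP3 and VTN were named for their gap or their large SD. Replicate 1 was the low library for the scores of lipid storage (0.85) and amino acid breakdown (0.821), for ALB (0.814) and for GLS2 (0.69). Replicate 3 was the high library for the proliferation score (0.692), MKI67 (0.65) and TOP2A (0.678), and the low one for the stellate and mesenchymal score (0.629), ORM1 (0.828), ENPP3 (0.907) and VTN (0.937).

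Replicate 4 was high for CPT1A (0.649), replicate 2 high for PLIN5 (0.703) and low for RPL37A (0.795), and replicate 5 low for HAO2 (0.79). At GD124 the score of ribosomal proteins had 1 low library (0.832). What sets these libraries apart was not tested.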

How the results depend on the processing

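Of 1366 recomputed values 1212 stayed within their limits and 4 changed sign, all 4 of the difference in library deviation between the stages, which ran from -0.0104 to 0.0162 when 1 library was left out. Leaving out 1 library gave a median SD of 0.198 to 0.218 at GD144 and 0.184 to 0.213 at GD124, a share of the first component of 31.5 to 41.4% (highest without replicate 3), 26 to 28 function lists above all genes, 8 to 14 relations with r above 0.8, 0 to 2 with an adjusted p under 0.05, 1576 to 2145 genes higher and 2116 to 2525 lower. For spread it gave 0 to 6 genes higher and 9 to 34 lower (most without GD144 replicate 3), and 0 to 1 each way among genes of 10 CPM at both stages.

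Genes called for spread, higher and lower, were 381 and 884 with no filter beyond a count above 0 (12 and 11 at 10 CPM in both stages), 0 and 0 with squared deviations, with deviations from the stage median and by exact permutation, and 17 and 15 (3 and 1) on the log scale, the last chosen after seeing the data. RLE size factors gave 2 relations with an adjusted p under 0.05. Also chosen after seeing the data, the first component took 35.8% without genes with a gap of 16-fold or more, and the median SD was 0.179 without replicates 1 and 4. With total counts replicate 1 lay at 98.5% among the rises and 78.7% among the falls, and replicate 6 at 84.6% among the rises. The cause of these changes was not tested.

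With the replicate number as a block 1372 genes were higher and 1934 lower in level, and 1 higher and 10 lower in spread. Shared numbers do not pair these libraries: none of the 5 pairs correlated best with its own number. The spread estimates rest on 6 and 5 libraries, and no setting varied the depth.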
